A study of Mus musculus with 2 samples.

Results

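The Klra genes encode the Ly49 receptors, the surface molecules with which mouse natural killer (NK) cells read MHC class I on the cells they meet. The 10 genes Klra1 to Klra10 described here were taken by symbol from the 32285 mouse genes in the count matrices, which list 11 Klra genes in all, the other being Klra17. The family was chosen by its measured values in these same libraries, namely its level in NK cells against other cells and its difference between the libraries. Those values are therefore given as a description, with no test.

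Ly49 receptors are C-type lectin-like dimers encoded in the NK gene complex of mouse chromosome 6. Most carry an inhibitory motif that recruits the phosphatases Ptpn6 and Ptpn11 when the receptor binds MHC class I, whereas Ly49D (Klra4) and Ly49H (Klra8) lack it and signal through the adaptors Tyrobp (DAP12) and Hcst (DAP10). Each NK cell switches on its own subset of the genes, so that one animal holds many receptor combinations. The number of Ly49 genes, their alleles and the balance of activating and inhibitory members differ between inbred mouse strains, and the reference gene set follows C57BL/6J. Ly49B (Klra2) is known from myeloid cells rather than NK cells, and Ly49Q (Klra17) from plasmacytoid dendritic cells and neutrophils.

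The cells came from subcutaneous tumors that the human osteosarcoma line 143B formed in female nude mice, 4 weeks old at inoculation. Nude mice have no thymus and therefore few T cells, and keep their NK and myeloid cells. Mice received 10 mg/kg of a human IgG1 control antibody (control IgG) or of an antibody against CD3L1 (anti-CD3L1) every 3 days, for 4 doses. Immune cells were isolated with CD45 magnetic beads, and the cells of 3 tumors per group were sequenced as 1 library with 10x Genomics droplets, which tag each RNA molecule with a unique molecular identifier (UMI). The nude strain is not named in the sources used here, and no record ties a cell to its tumor. Treatment, library, tumors and mouse background therefore cannot be told apart, no test across samples was possible, and each interval below is a 95% interval that covers counting error only.

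After filtering, 8557 barcodes from control IgG and 11269 from anti-CD3L1 tumors were kept, with medians of 5526 and 8267 UMIs, and 26 barcodes occurred in both, which is 0.304% of the smaller library. Barcodes were sorted into 13 classes by marker lists that held no Klra gene. NK cells were 168 barcodes (1.96%, interval 1.68 to 2.28) with control IgG and 987 (8.76%, interval 8.24 to 9.30) with anti-CD3L1. The 10 NK markers each had a UMI in over 25% of the NK cells of both libraries, which the gate itself favours. Markers of T cells, which share many genes with NK cells, summed to 216 and 212 CPM (the UMIs of a gene divided by all UMIs of the class and brought to a common scale) in NK cells and to 21.3 and 18.2 CPM in the other barcodes. Of these 8 markers Cd3e was at 0 UMIs in NK cells of both libraries and Cd5 at 0 with control IgG, while Trbc2 was found in 36.3% and 34.4% of NK cells, Cd3g in 29.2% and 24.5% and Trac in 11.3% and 6.89%. Neutrophil markers in NK cells summed to 7696 and 177 CPM, against 92107 and 2110 CPM in the other barcodes, with 0 of 8 at 0. Macrophage markers went the other way, with 195 and 872 CPM in NK cells against 2785 and 11940.0 CPM in the other barcodes, and 1 of 8 at 0 with control IgG. RNA of both cell types in NK cells thus moved with the groups. When the profile of free RNA was subtracted, the library difference in NK cells kept its direction for 8 members, while Klra2 left no RNA to compare.

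NK cells held most of the RNA of the members other than Klra2 as a sum, though not of each one. Without Klra2, the family gave 1685 UMIs with control IgG and 4678 with anti-CD3L1, of which 84.2% and 87.3% lay in NK cells. Among gated cells alone these shares were 92.7% and 91.7%. The lowest shares of single members were 42.9% of 7 Klra6 UMIs and 43.2% of 132 Klra9 UMIs with control IgG, and 70.0% of 10 Klra8 UMIs with anti-CD3L1. In neutrophils, which serve as the background for free RNA, the same 9 genes gave 10 UMIs in 9 of 4971 cells with control IgG and 0 UMIs in 404 cells with anti-CD3L1, where a count of 0 allows up to 2.48 CPM. Innate lymphoid (ILC)-like cells, the nearest relatives of NK cells among the classes, gave 0 UMIs in 27 cells and 5 UMIs in 152 cells. Macrophages gave 16 and 158 UMIs (2.99 and 5.31 CPM), of which 5 and 113 were Klra3. Plasmacytoid dendritic cells gave 0 and 35 UMIs, the latter at 16.1 CPM. The few T cells stood apart: 31 UMIs lay in 2 of 7 T cells with control IgG and 29 UMIs in 9 of 41 with anti-CD3L1, and whether these barcodes were NK cells, T cells or both together was not tested.

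Of the 9 members with at least 10 UMIs in the comparison, 8 were at least 2-fold higher in NK cells than in all other barcodes in each library, a threshold that 28.3% of 16396 genes passed with control IgG and 18.0% of 18331 genes with anti-CD3L1. The member that was not higher was Klra2 in both libraries, and Klra6 had too few UMIs to be counted. With control IgG the log2 ratio of NK cells over other barcodes ran from 4.61 for Klra9 to 8.64 for Klra7. With anti-CD3L1 it ran from 4.39 for Klra8 to 7.02 for Klra7. Among the 8 members higher in NK cells, Klra9 (Ly49I) was the least confined with control IgG. Only 57 of its 132 UMIs (43.2%) lay in NK cells and 38 lay in 28 monocytes. Over all 973 monocytes of the control IgG library Klra9 gave 3.03 CPM (interval 2.14 to 4.16). The 1635 monocytes of the anti-CD3L1 library gave 0 UMIs, which allows up to 0.224 CPM.

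**Figure D1:**
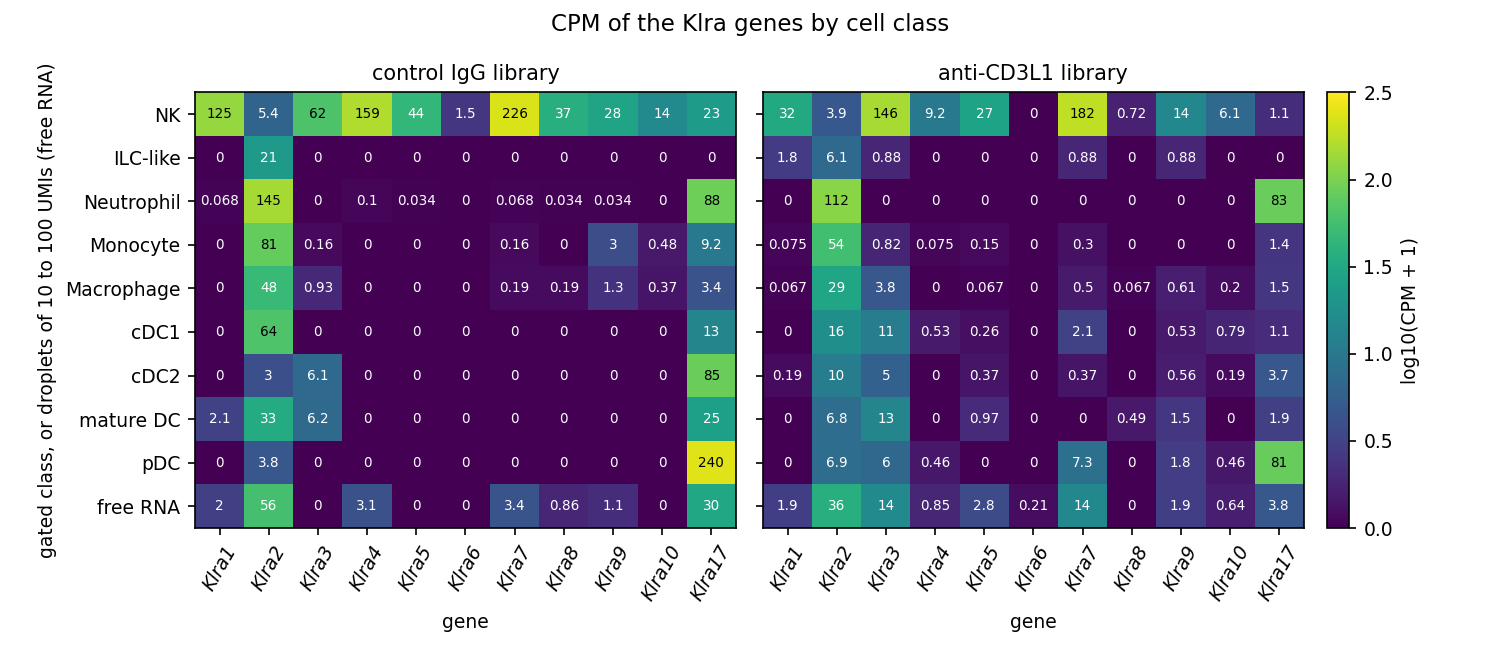
Level of each of the 10 members and of Klra17 in gated cell classes and in free RNA, in CPM on a colour scale, with the control IgG library and the anti-CD3L1 library side by side. T cells, B cells, mast cells or basophils, fibroblasts and unassigned barcodes are not drawn. Klra1, Klra3, Klra4, Klra5, Klra7, Klra8, Klra9 and Klra10 are higher in NK cells than in the other barcodes as a whole. Klra2 is higher in the rows of neutrophils and monocytes than in those of macrophages and free RNA.

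The inhibitory receptors of the family gave most of its UMIs in NK cells. Klra7 (Ly49G) was the most frequent member in both libraries, with 226 CPM (459 UMIs, interval 206 to 247) with control IgG and 182 CPM (1782 UMIs, interval 174 to 191) with anti-CD3L1, a log2 ratio (anti-CD3L1 to control, as throughout) of -0.31 (interval -0.46 to -0.16). This difference stayed well short of 2-fold, although it lay below the middle range of all genes in NK cells, whose quartiles were -0.14 and 0.48. Klra3 (Ly49C) was the only member that was higher with anti-CD3L1, at 62.5 CPM (127 UMIs, interval 52.1 to 74.3) and 146 CPM (1432 UMIs, interval 139 to 154), which is 2.34-fold higher (log2 1.23, interval 0.97 to 1.5). In the barcodes outside NK cells Klra3 was higher with anti-CD3L1 as well, at 0.352 CPM (23 UMIs) and 3.84 CPM (338 UMIs). So were Klra7 (0.567 and 1.41 CPM) and Klra5 (0.184 and 0.340 CPM), although neither was higher in NK cells, while the other members were lower there. NK cells were a larger share of barcodes with anti-CD3L1, and how much of this RNA came from them was not tested. In NK cells Klra1 (Ly49A) went the other way from Klra3. It fell from 124.9 CPM (254 UMIs, interval 110.0 to 141) to 32.3 CPM (316 UMIs, interval 28.8 to 36.1), 3.87-fold lower (log2 -1.95, interval -2.19 to -1.71). The Klra3 and Klra1 intervals of the libraries do not touch in either case, and these inhibitory genes therefore exchanged rank.

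The remaining inhibitory members were less abundant. Klra5 (Ly49E) gave 44.3 CPM (90 UMIs) and 27.2 CPM (266 UMIs), a log2 ratio of -0.70 (interval -1.05 to -0.34) that did not reach the 2-fold threshold. Klra9 gave 28 CPM (57 UMIs) and 13.6 CPM (133 UMIs), 2.06-fold lower (log2 -1.04, interval -1.5 to -0.57), just past that threshold. Klra10 (Ly49J) gave 14.3 CPM (29 UMIs) and 6.13 CPM (60 UMIs), 2.33-fold lower (log2 -1.22, interval -1.88 to -0.53). Klra6 (Ly49F) was barely seen, with 3 UMIs in 2 of 168 NK cells and 0 UMIs in 987 NK cells, where a count of 0 allows up to 0.307 CPM. No fold was formed for it.

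The activating receptors showed the largest differences of the family. Klra4 (Ly49D) fell from 159 CPM (324 UMIs, interval 142 to 178) with control IgG to 9.20 CPM (90 UMIs, interval 7.39 to 11.3) with anti-CD3L1, 17.3-fold lower (log2 -4.12, interval -4.47 to -3.77). Klra8 (Ly49H), the receptor known for recognizing cells infected with mouse cytomegalovirus, fell from 36.9 CPM (75 UMIs) to 0.715 CPM (7 UMIs), 51.6-fold lower (log2 -5.69, interval -7.05 to -4.58). Together they made up 28.1% (interval 25.8 to 30.6) of the 1418 UMIs of the 9 NK members with control IgG, and 2.37% (interval 1.93 to 2.89) of 4086 with anti-CD3L1. At least 1 UMI of either was found in 83 of 168 NK cells (49.4%, interval 41.6 to 57.2) and in 72 of 987 (7.29%, interval 5.75 to 9.10). More than the number of cells differed, because a cell with Klra4 held 4.44 UMIs of it on average with control IgG, where 32 cells held 5 or more, and 1.38 UMIs with anti-CD3L1, where no cell held more than 3.

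**Figure D2:**
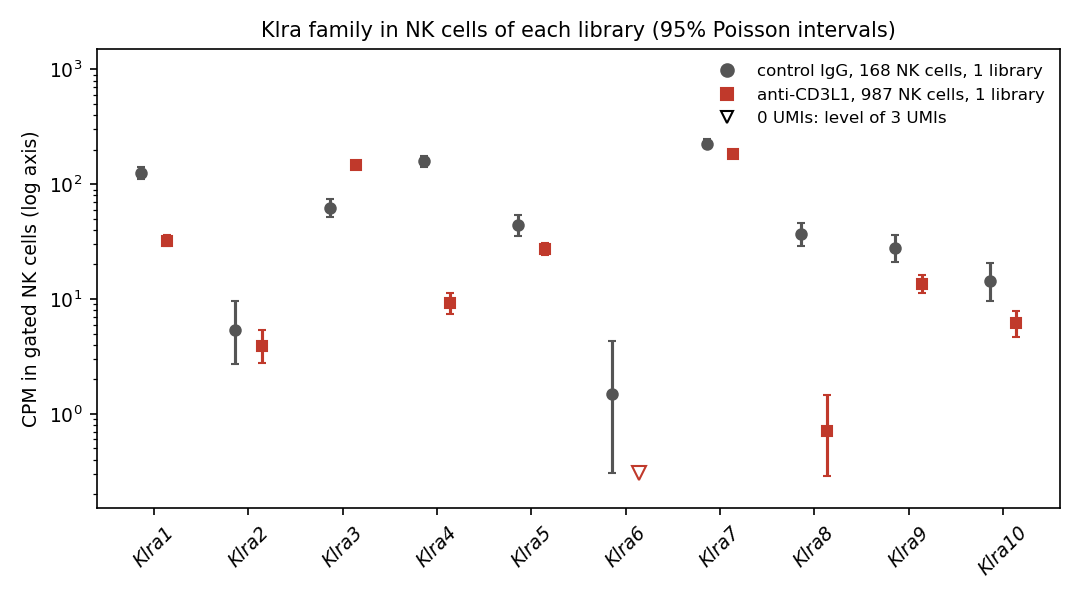
Level of each member in NK cells in CPM on a log axis, control IgG beside anti-CD3L1, with 95% counting intervals and 1 library per group. Klra4 and Klra8 are separated by over 10-fold, Klra1 by 3.87-fold, and Klra3 is the only member whose anti-CD3L1 value is the higher by at least 2-fold.

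Because a UMI is counted once per captured molecule and was not scaled to transcript length, the make-up of the family is given as shares of UMIs within a library. With control IgG, Klra7 gave 32.4% of the UMIs of the 9 NK members, Klra4 22.8%, Klra1 17.9% and Klra3 8.96%. With anti-CD3L1, Klra7 gave 43.6%, Klra3 35.0%, Klra1 7.73% and Klra4 2.20%. The order was thus led by Klra7 in both libraries and followed by an activating gene in one and by Klra3 in the other. Klra5 kept about the same share, 6.35% and 6.51%, with overlapping intervals.

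Summed over all 10 members, NK cells held 703 CPM (interval 667 to 740) with control IgG and 421 CPM (interval 409 to 434) with anti-CD3L1, 1.67-fold lower (log2 -0.74, interval -0.83 to -0.65). Of 13066 genes with at least 10 UMIs in NK cells, 2.53% were at least 2-fold lower with anti-CD3L1 and 5.07% at least 2-fold higher. Of the 9 members tested, 5 were lower (Klra1, Klra4, Klra8, Klra9 and Klra10), 1 was higher (Klra3) and 3 were neither (Klra2, Klra5 and Klra7). Their median log2 ratio was -1.04, against 0.17 over all genes tested. The libraries' scale factors in NK cells differ by 0.11 on the log2 scale when set by the median over genes with a UMI in both. Relative to this factor the family sum lies at -0.85, Klra3 at 1.12 and Klra4 at -4.23. The family was chosen with this contrast in view, so nothing is read from these counts.

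**Figure D3:**
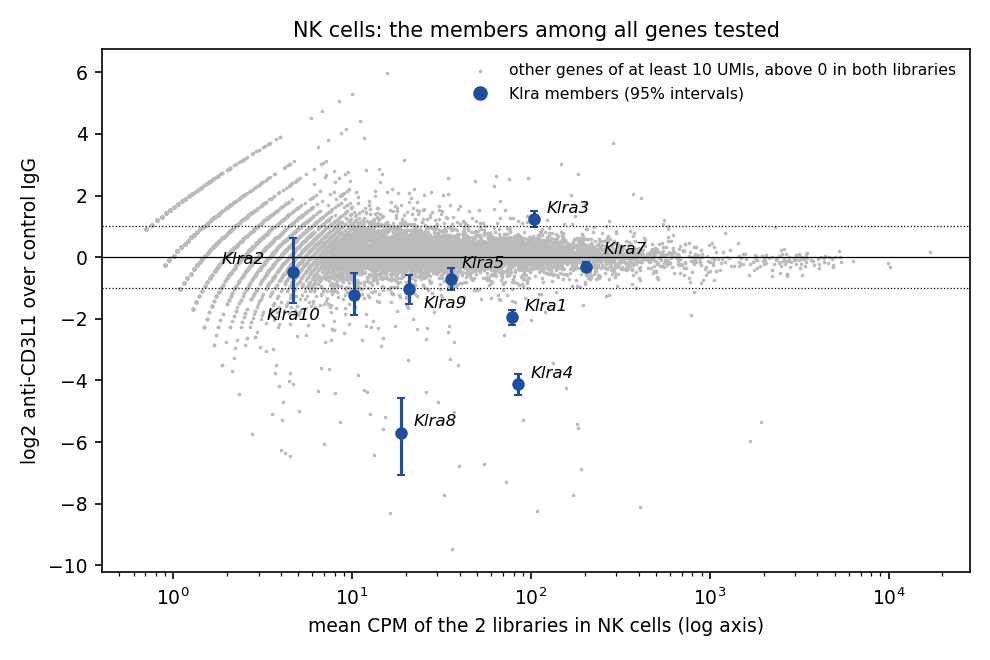
Log2 ratio (anti-CD3L1 to control IgG) in NK cells against mean CPM on a log axis, with 1 grey point per gene and the members of at least 10 UMIs in blue with 95% counting intervals. Klra8 at -5.69, Klra4 at -4.12 and Klra1 at -1.95 lie below the dotted line for a 2-fold difference, and Klra3 at 1.23 lies above the other one.

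Detection per cell was compared at equal depth, because NK cells of the control IgG library were deeper (median 10872.5 UMIs) than those of the anti-CD3L1 library (8959 UMIs). With each NK cell thinned at random to 1000 UMIs, any of the 10 members was found in 41.1% of cells (interval 33.6 to 48.9) with control IgG and 28.3% (interval 25.5 to 31.2) with anti-CD3L1, and without thinning in 75% and 69.5%. In thinned neutrophils, whose medians were 4696 and 2277 UMIs before thinning, the 9 NK members were found in 0.0204% of 4906 cells and in 0 of 393 cells, so detection in NK cells was far above the free RNA background. Klra4 was found in 17.3% of thinned NK cells with control IgG and 0.813% with anti-CD3L1, Klra1 in 11.3% and 2.95%, and Klra3 in 5.36% and 13.3%. Klra7 was found in 15.5% and 12.2%.

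The members were combined within single NK cells in many ways. Of the 168 NK cells with control IgG, 42 (25%) had no member UMI and 95 (56.5%, interval 48.7 to 64.2) had UMIs of 2 or more members, up to 7. Of the 987 NK cells with anti-CD3L1, 301 (30.5%) had none and 343 (34.8%, interval 31.8 to 37.8) had 2 or more, up to 5. The mean number of members per cell was 2.14 and 1.21. At an equal depth of 5000 UMIs, a setting chosen after seeing the data that left 145 and 806 cells, 2 or more members were found in 49.0% (interval 40.6 to 57.4) and 24.1% (interval 21.2 to 27.2) of cells, so the order of the libraries was the same.

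**Figure D4:**
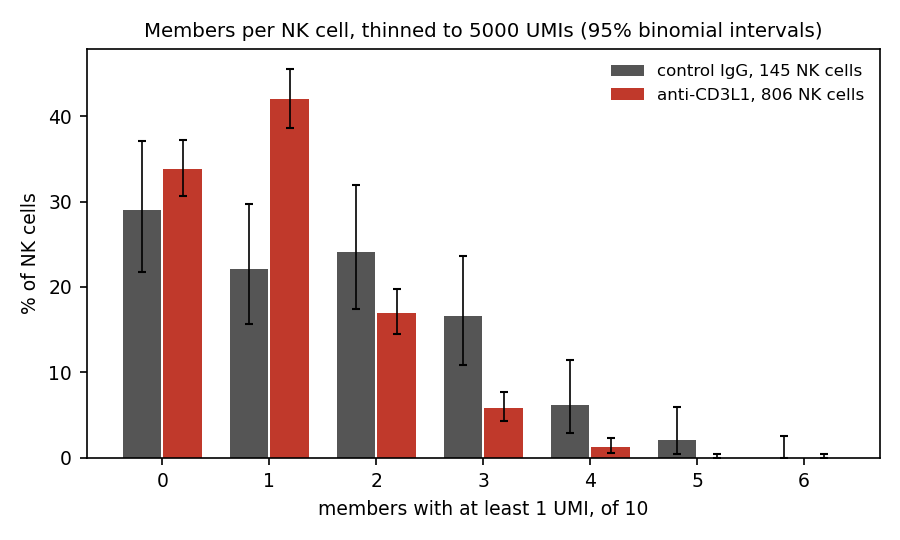
Share of NK cells, in percent, by the number of the 10 members with a UMI, for control IgG and anti-CD3L1, with 95% binomial intervals, at an equal depth of 5000 UMIs per cell. With anti-CD3L1 the bar for 1 member is the tallest at 42.1%, and with control IgG 2 members (24.1%) and 3 members (16.6%) are more frequent than with anti-CD3L1.

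The most frequent combinations differed in the same way. With control IgG, Klra7 alone was found in 12 cells and Klra4 with Klra7 in 10, among the 168 cells. With anti-CD3L1, Klra7 alone was found in 160 cells, Klra3 alone in 118 and Klra3 with Klra7 in 72, among the 987 cells. No combination with Klra4 or Klra8 was among the 6 most frequent with anti-CD3L1.

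Pairs of members within cells were then counted. Among the 28 pairs of the 8 members compared, a second member was more frequent in cells with the first, in both directions, for 24 pairs with control IgG and for 19 with anti-CD3L1, and the intervals were apart for 12 and 5. Cells with a member also tended to be deeper, for example 12276 against 10116 UMIs at the median for Klra4 with control IgG. At 5000 UMIs per cell the second member was more frequent in both directions for 20 of 28 pairs and 11 of 21 pairs, and the intervals were apart for 3 and 2, so most of these pairs were not distinguishable from equal frequency at equal depth. Klra4 with Klra7 was one pair with control IgG: at 5000 UMIs Klra7 was found in 57.7% of the 52 cells with Klra4 (interval 43.2 to 71.3) and in 23.7% of the 93 cells without it (interval 15.5 to 33.6).

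With anti-CD3L1, Klra9 and Klra10 were found mainly in cells with Klra3. Klra3 was found in 96 of 111 cells with Klra9 (86.5%) and in 32.6% of the cells without it, and in 51 of 55 cells with Klra10 (92.7%) and in 35.5% of the cells without it. At 5000 UMIs the shares were 79.3% of 58 cells with Klra9 and 80.0% of 25 cells with Klra10, and 30.9% and 32.9% of the cells without them. Klra9 rarely exceeded 1 UMI in these cells (mean 1.20 among cells with it), whereas with control IgG it reached 2.04. Klra5 differed from them, since Klra3 was found in 25 of 60 cells with it (41.7%) and in 38.5% of the cells without it. The transcripts of Klra3, Klra9 and Klra10 share stretches of sequence. Over the whole transcript, 13.6% of the stretches of 50 bases of Klra9 occur in Klra3, and 21.4% of those of Klra10 occur in Klra9. Of all stretches of 50 bases in the last 400 bases of the Klra9 transcript, 33.9% also occur in Klra3 and 46.4% in some other Klra transcript, and the share is 52.1% for Klra10. Counts of Klra3, Klra9 and Klra10 may be affected by this likeness, and whether reads were lost or counted for another of these genes was not tested. Klra4 and Klra1 share 0% of such stretches with any other Klra gene in their last 400 bases, Klra8 shares 15.7% and Klra7 shares 35.3%, the latter with the pseudogene Klra13-ps.

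The genes lie side by side. In the reference build GRCm38 with GENCODE M21 annotation, which is not the GRCm39 build named in the submitters' processing notes, all 10 are protein-coding genes on the minus strand of chromosome 6. Klra5, Klra6, Klra4, Klra8, Klra9, Klra7, Klra10, Klra3 and Klra1 follow each other from 129898996 to 130386874, a span of 487.9 kb, and Klra2 lies 832.3 kb beyond them, from 131219223 to 131247362. Klra4 (130043731 to 130067271) and Klra8 (130115226 to 130129898), the activating members with the largest falls, have neighbouring places among the 10 members. Klra3 (130323289 to 130337574), which was higher, and Klra1 (130363917 to 130386874), which was lower, have neighbouring places as well. Whether the direction goes with position was not tested.

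The promoters of 5 members are shown because these members carry the contrasts above: Klra3 rose, Klra4 and Klra8 fell, Klra7 was the most frequent, and Klra2 is the myeloid member. Each runs from 250 bases before to 50 bases after the RefSeq transcription start (GRCm38.p6), 5′ to 3′ on the gene's strand. Capitals mark the stretch that best matches AGGAGGGGCAGAAAA, a run of 15 bases common to the promoters of 6 members.
Klra3 promoter, chr6:130337577-130337876, minus strand: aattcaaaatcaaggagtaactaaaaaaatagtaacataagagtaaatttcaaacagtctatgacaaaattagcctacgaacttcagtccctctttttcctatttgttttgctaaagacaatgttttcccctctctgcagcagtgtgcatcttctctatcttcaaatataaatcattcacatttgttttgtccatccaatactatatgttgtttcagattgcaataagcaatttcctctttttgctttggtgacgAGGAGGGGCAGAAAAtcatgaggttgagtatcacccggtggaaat
Klra4 promoter, chr6:130067222-130067521, minus strand: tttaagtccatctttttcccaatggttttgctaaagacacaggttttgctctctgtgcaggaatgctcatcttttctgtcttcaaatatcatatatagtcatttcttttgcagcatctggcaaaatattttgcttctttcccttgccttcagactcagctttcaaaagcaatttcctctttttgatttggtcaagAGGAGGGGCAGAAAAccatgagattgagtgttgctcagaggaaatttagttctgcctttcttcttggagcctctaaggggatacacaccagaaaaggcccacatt
Klra8 promoter, chr6:130129849-130130148, minus strand: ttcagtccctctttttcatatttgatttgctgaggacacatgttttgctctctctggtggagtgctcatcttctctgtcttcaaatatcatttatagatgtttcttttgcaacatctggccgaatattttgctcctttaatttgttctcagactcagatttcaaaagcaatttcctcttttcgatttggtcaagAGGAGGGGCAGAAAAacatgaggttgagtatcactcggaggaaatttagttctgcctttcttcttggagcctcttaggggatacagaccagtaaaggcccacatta
Klra7 promoter, chr6:130233273-130233572, minus strand: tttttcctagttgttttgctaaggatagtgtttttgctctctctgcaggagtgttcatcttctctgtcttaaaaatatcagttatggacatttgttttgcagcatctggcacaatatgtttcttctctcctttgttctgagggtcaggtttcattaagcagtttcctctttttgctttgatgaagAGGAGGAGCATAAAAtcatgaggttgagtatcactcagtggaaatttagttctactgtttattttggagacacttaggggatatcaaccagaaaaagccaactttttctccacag
Klra2 promoter, chr6:131247313-131247612, minus strand: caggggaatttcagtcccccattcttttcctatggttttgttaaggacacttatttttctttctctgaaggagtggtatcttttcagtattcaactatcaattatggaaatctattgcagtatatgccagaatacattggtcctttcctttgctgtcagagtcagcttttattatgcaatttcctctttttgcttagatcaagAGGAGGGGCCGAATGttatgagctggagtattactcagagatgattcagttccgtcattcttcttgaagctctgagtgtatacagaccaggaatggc

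The run was picked from the members' own promoters, as the longest stretch shared by the most of them, so its presence there follows from the search. It was present without a mismatch in the promoters of 6 members (Klra3, Klra4, Klra5, Klra6, Klra8 and Klra9). Of 32851 RefSeq promoters of the same length 0.0274% held it, the others being Klra17 and Gm52487. The best match had 2 mismatches in Klra7, 3 in Klra2, 5 in Klra1 and 8 in Klra10. The annotated Klra10 transcript is the shortest of the members, at 823 bases, and whether its window covers the promoter was not tested. The run was thus present in genes that were higher (Klra3), lower (Klra4, Klra8 and Klra9) and not past the threshold (Klra5) with anti-CD3L1. The core CTTTGA of TCF/LEF factors, to which Tcf7 belongs, was present in Klra6 and Klra7 and in 16.0% of all promoters. The core TGTGGT of Runx factors was present in Klra1 and in 16.8% of all promoters, and AGGAAA, a core of ETS factors, in 9 members and in 29.1% of all promoters. These are matches of letters in a reference window, and the mice may carry other alleles.

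Klra2 behaved as a myeloid gene. Of its 6431 UMIs with control IgG, 86% lay in neutrophils, monocytes and macrophages and 0.171% in NK cells, and of its 2884 UMIs with anti-CD3L1, 60.1% and 1.32%. In neutrophils it gave 144.7 CPM (interval 140.4 to 149) with control IgG and 112 CPM (interval 94.2 to 133) with anti-CD3L1, in monocytes 80.7 and 54.3 CPM, and in macrophages 48.0 and 29.3 CPM. In NK cells it gave 5.41 CPM (11 UMIs) and 3.88 CPM (38 UMIs), below its 56.5 and 36.4 CPM in barcodes of free RNA. Macrophages also lay below free RNA in both libraries, whereas neutrophils and monocytes lay above it. The order of the 3 myeloid classes, neutrophils over monocytes over macrophages, was the same in both libraries with no overlap of intervals within a library.

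Within each myeloid class Klra2 was lower with anti-CD3L1, by less than 2-fold. The log2 ratios were -0.37 in neutrophils (interval -0.62 to -0.12), -0.57 in monocytes (interval -0.71 to -0.43) and -0.71 in macrophages (interval -0.91 to -0.51). Over genes with a UMI in both libraries, the median log2 ratio was 0.84 in neutrophils and 0.23 in monocytes. Relative to it the Klra2 ratio lay at -1.20 and -0.80. This median set no minimum count, and neutrophils held 29435360 UMIs with control IgG and 1211747 with anti-CD3L1. Genes missed in the smaller set were thus left out of it. Over all kept barcodes Klra2 gave 95.6 and 29.5 CPM, 3.24-fold lower (log2 -1.70), while neutrophils were 58.1% of barcodes with control IgG and 3.59% with anti-CD3L1. At 1000 UMIs per cell Klra2 was found in 13.2% and 10.4% of neutrophils, in 7.84% and 5.58% of monocytes and in 3.9% and 3.44% of macrophages. The intervals of the libraries overlap in each of these classes. Unthinned shares were 46.5% and 24.8% of neutrophils, so the gap between the libraries was smaller at equal depth.

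Klra2 was also seen in dendritic cells. In cDC1, the dendritic cells that take up dead cells for cross-presentation, it gave 64.2 CPM (25 UMIs) with control IgG and 16.4 CPM (62 UMIs) with anti-CD3L1. In plasmacytoid dendritic cells it gave 1 UMI in 24 cells and 15 UMIs in 253 cells. Klra17, the Klra gene outside the list, differed from it there, with 240 CPM (63 UMIs) and 81.3 CPM (177 UMIs) in plasmacytoid dendritic cells. In neutrophils Klra17 gave 88.0 and 83.4 CPM, a log2 ratio of -0.08 (interval -0.38 to 0.21). It was lower with anti-CD3L1 in cDC2, at 85.1 CPM (28 UMIs) and 3.73 CPM (20 UMIs), a log2 ratio of -4.51 (interval -5.42 to -3.63). These were 21 cDC2 barcodes with control IgG and 436 with anti-CD3L1. In monocytes it was lower as well, at 9.16 and 1.42 CPM (log2 -2.69). In NK cells it gave 47 UMIs in 7 cells and 11 UMIs in 5 cells, or 23.1 and 1.12 CPM (log2 -4.36).

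**Figure D5:**
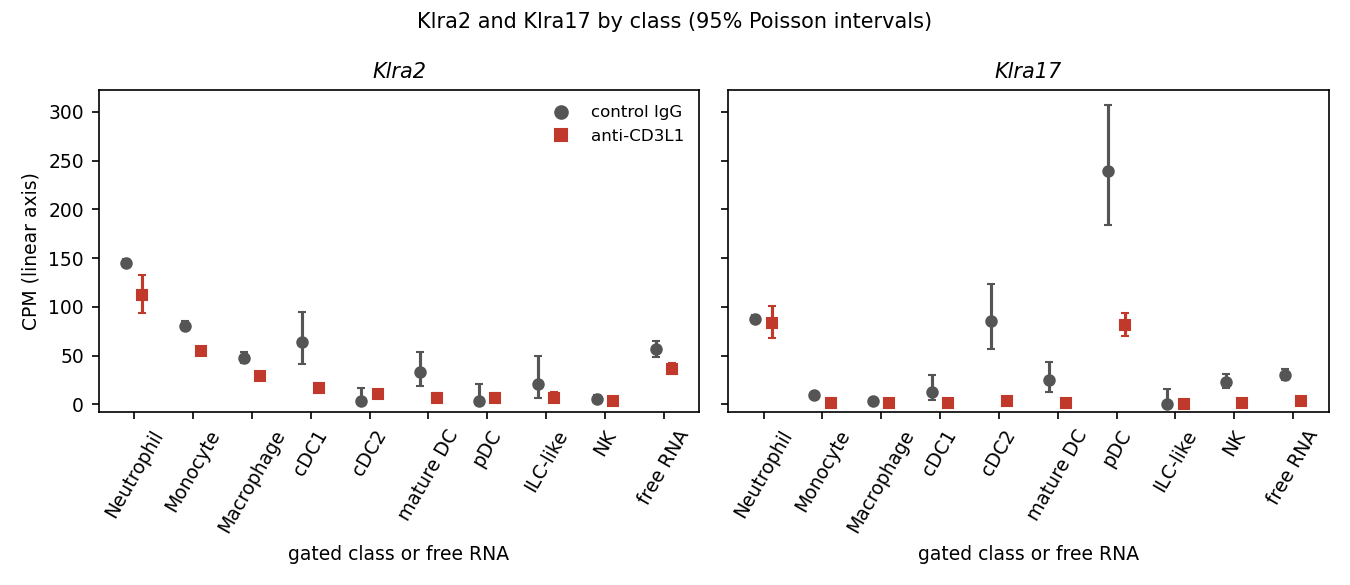
Levels of Klra2 and Klra17 by cell class in CPM, control IgG beside anti-CD3L1, with 95% counting intervals. Klra2 is highest in neutrophils (144.7 and 112 CPM) in both libraries, and Klra17 is high in neutrophils and in plasmacytoid dendritic cells (240 and 81.3 CPM).

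The signalling partners of the receptors stayed within 2-fold in NK cells. Of 11 adaptor and signalling genes, 0 were 2-fold higher and 0 were 2-fold lower in NK cells with anti-CD3L1, and their median log2 ratio was 0.16, against 0.17 over all genes, of which 5.07% were higher and 2.53% lower, so counts of 0 are close to the background. Tyrobp, the adaptor of Ly49D and Ly49H, gave 1174 and 1164 CPM, and Hcst gave 287 and 274 CPM. The phosphatase gene Ptpn6 gave 69.8 and 60.2 CPM. The MHC class I genes that encode Ly49 ligands were likewise within 2-fold in NK cells, with H2-K1 at 1517 and 1633 CPM, H2-D1 at 2602 and 2296 CPM and the light chain gene B2m at 2178 and 1925 CPM.

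Of the other 13 lectin-like receptor genes of the NK gene complex, 0 were 2-fold higher and 0 were 2-fold lower, with a median log2 ratio of -0.33. Klrd1, which encodes CD94, gave 249 and 267 CPM, and Klrc1, which encodes its inhibitory partner NKG2A, gave 128 and 102 CPM. Klrk1, which encodes the activating receptor NKG2D, gave 343 and 274 CPM. Klre1 gave 264 and 170 CPM. With 5.07% of all genes higher and 2.53% lower, these counts are close to the background as well.

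Among 8 transcription factors of NK cells none passed the threshold, with a median of -0.23, and Tcf7, known to act on Ly49A expression, gave 142 and 88.1 CPM while Runx3 gave 988 and 567 CPM. Of 7 genes typical of ILC1, 1 was lower, Itga1 at 75.7 and 29.7 CPM, and the median was -0.35. Of 7 genes of mature NK cells, 2 were higher and the median was 0.53: Cx3cr1 gave 7.87 and 18.5 CPM, and S1pr5 gave 1 UMI and 31 UMIs. The others of that list did not pass, with Zeb2 at 451 and 713 CPM and Klrg1 at 41.8 and 60.3 CPM, and with Gzmb at 613 and 395 CPM, Itgam at 54.1 and 38.9 CPM and Cma1 at 8.85 and 6.85 CPM on the other side. Over all genes tested 5.07% were higher and 2.53% lower. Cx3cr1 was higher in the other barcodes than in NK cells, at 58.9 and 88.7 CPM, as were Zeb2 and Itgam. How much of their RNA in NK cells came from other cell types was not tested. The part of the genes of these lists in the differences of the Klra genes was not tested either.

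Within each library the 9 NK members were summed in NK cells with and without a UMI of each of 18 other receptor, ILC1-type and mature NK genes. For 12 genes the sum lay on the same side in both libraries (8 higher with the gene, 4 lower), and for 6 it lay on opposite sides: Itga1, Tnfsf10, Zeb2, Gzmb, Klrb1f and Klrc3. Intervals were apart in both libraries, on the same side, for 4 genes. These intervals treat each UMI as independent, whereas member UMIs were clustered in cells. With control IgG, for example, the 90 Klra5 UMIs in NK cells lay in 15 cells. The intervals therefore do not cover the spread between cells, and no such split over other genes is given for comparison. Cells with Klrg1, a receptor of mature NK cells, held 817 CPM and cells without it 650 CPM with control IgG, and 524 and 360 CPM with anti-CD3L1. Klre1 and Klri2 also went with a higher sum, for Klri2 with 825 against 352 CPM with control IgG and 473 against 331 CPM with anti-CD3L1. Tmem176a, an ILC1-type gene, went with a lower sum, at 199 against 800 CPM and 250 against 445 CPM. In contrast, cells with Gzmb held 782 against 545 CPM with control IgG and 384 against 455 CPM with anti-CD3L1. Cells with a UMI of the gene were deeper at the median in both libraries for 14 of the 18 genes. Tmem176a gave 31.0 and 22.1 CPM in NK cells, below its 109 and 212 CPM in the other barcodes. Whether its UMIs in NK cells came from other cell types was not tested.

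Genes outside the family also differed between the libraries in every class measured. Tpd52l1, Nos2, Ly6c1 and Mpp7 were the 4 genes at least 8-fold lower with anti-CD3L1 in all 7 classes compared. In NK cells Tpd52l1 gave 145 and 0.920 CPM and was found in 132 of 168 cells (78.6%) and 6 of 987 cells (0.608%). BC018473 went the other way, with 2 UMIs in 4971 neutrophils and 2448 UMIs in 404. Ighg2c is an antibody gene that C57BL/6-type mice carry and several other strains replace with Ighg2a. Over all kept barcodes it gave 496 UMIs in 112 barcodes with control IgG and 1 UMI with anti-CD3L1. Ighg2b, another antibody gene, was also lower, with 59 UMIs in 19 barcodes and 13 UMIs in 5, and Ighg1 gave 0 UMIs in both libraries. Tpd52l1 was found in 60 of 73 NK cells with Klra4 with control IgG and in 1 of 65 with anti-CD3L1, where 5 of 922 cells without Klra4 held it. Of the 7 NK cells with Klra8 in the anti-CD3L1 library 1 held Tpd52l1, against 5 of 980 without Klra8, and Mpp7 was found in 9.23% of cells with Klra4 there and in 5.75% of those without. Ly6c1 went the other way there, in 0 of 65 cells with Klra4 and 3 of 922 without it. It was also found in 0 of 7 cells with Klra8 and 3 of 980 without it. With control IgG, Ly6c1 was found in 4.11% of cells with Klra4 and 18.9% of those without. The counts of Tpd52l1 and Ly6c1 with anti-CD3L1 are a few cells each. The part of mouse background in the Klra differences was not tested, and with 1 library per group it cannot be told apart from the treatment.

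The genes whose levels most resembled the family were found over 14 points, each a class of at least 50 barcodes in a library, among 14025 genes. For the sum of the 10 members the highest Pearson r was 0.95 for Gm16897, ahead of 0.84 to 0.85 for Ppic, Gm17130, Slc25a27 and Hist1h2br, and for Klra2 it was 0.97 for Bst1, followed by Eif4ebp1, C5ar1, Slfn1 and Clec4d. For the 9 NK members without Klra2, a sum chosen after the values were seen, it was 0.98 for Kcnip3, Gzmb, Klrb1c, Clip4 and Styk1. The points share libraries and cells, so these values describe a likeness.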

How the data were processed

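For each library the authors deposited 1 matrix of raw UMI counts over all barcodes, which the submitters' processing notes credit to Cell Ranger 7.1.0 and GRCm39, with Seurat 5.1.0 for later steps. Barcodes with at least 500 UMIs, more than 200 and fewer than 6000 genes and under 5% mitochondrial UMIs were kept. A barcode was given the marker list with the highest mean scaled log level if at least 3 markers had a UMI, the mean was at least 0.5 and the lead at least 0.25, and otherwise stayed unassigned. Scrublet's automatic threshold called 0 doublets in both libraries and so did not work, and doublets were kept. UMIs were summed per class and library and given as CPM with exact Poisson intervals, shares with exact binomial intervals and ratios with exact conditional binomial intervals, all at 95%. A count of 0 was given the limit of 3 counts. A gene of at least 10 UMIs in NK cells was called 2-fold different if its log2 ratio was at least 1 in size with the interval on that side of 0. Free RNA was read from barcodes of 10 to 100 UMIs. Intervals and thinning were checked only on simulated counts drawn independently, which lack the clustering of UMIs in single cells. Named genes are the 10 members, the genes of the gate and context lists and the 5 genes most alike in log2(CPM + 10). Those outside this rule (Klra17 in its details, Mpp7, Tpd52l1, Nos2, Ly6c1, BC018473, Ighg2c, Ighg2b and Ighg1) were chosen after their values were seen. The members and lists were chosen with earlier results of these data known. Motifs were searched on both strands. Promoters are RefSeq sequences (GRCm38.p6), matched by symbol for 10 of 10 members. Alternatives changed the gate, the UMI minimum, doublets, clusters in place of the gate, free RNA, scaling and depth. Tools were scanpy 1.11.5, scipy 1.17.1 and pandas 2.3.3 under Python 3.11.15.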

Additional observations from a re-analysis of the deposited data

How the results depend on the processing

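Of 76 alternatives for the family's summary values, 59 stayed within the limit set for them and 17 moved further. The limit was the counting interval, or a fixed fold for the counts of members called. A change of direction can only occur in the log2 ratios, and no log2 ratio of the family sum or of Klra2 in myeloid classes changed sign. The family's log2 ratio in NK cells was -0.85 both as a mean over cells and with median-of-ratios scaling. Under the latter Klra2 lay at -1.20 in neutrophils and -0.80 in monocytes, and with clusters in place of the marker gate at -0.27 in monocytes and -0.46 in macrophages. The NK share of the 10 members' UMIs was 16.7% with control IgG and 52.0% with anti-CD3L1 under a stricter gate, 19.7% and 57.2% with clusters, 18.7% with control IgG without the highest doublet scores, and 58.8% with anti-CD3L1 after subtracting free RNA. The share of NK cells with a member UMI was 53.9% and 45.2% at 2000 UMIs and 75% and 69.5% without thinning. With anti-CD3L1, cells with 2 or more members were 24.1% at 5000 UMIs, a setting added after seeing the data. Of 71 alternatives for single members, 69 stayed within the interval and 0 changed direction. Klra9 fell short of 2-fold under the stricter gate (-0.94) and with clusters (-0.99), where Klra2 in NK cells lay at -1.84, so the members called lower were 4 under the stricter gate. Klra4 ranged from -4.23 to -4.04, Klra8 from -6.16 to -5.61, Klra1 from -2.06 to -1.87 and Klra3 from 1.12 to 1.29. The cause of these shifts was not tested. No paired analysis was possible because each group holds 1 library. Depth limits the rarer members, such as Klra6 with 3 and 0 UMIs and Klra8 with 7 UMIs in 987 NK cells.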
